A study of Arabidopsis thaliana with 18 samples.

Results

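The 31 genes described here carry a plant cell through mitosis and division. They are 8 B-type cyclins, 7 A-type cyclins, 5 cyclin-dependent kinases (CDKs), 3 Aurora kinases, the 2 CDC20 genes, 4 genes of the spindle and the cell plate, and the transcription factors MYB3R1 and MYB3R4. They were picked from the 32832 genes of the count table as a list of locus identifiers for these functions; the rule uses no measured level, but the list was drawn up with earlier results of these data known. RNA came from whole Arabidopsis seedlings, 5 days old, of atm1-1 and of the wild type Col-0. The mutant atm1-1 is a T-DNA line in the Col-0 background whose insertion lies in the class VIII myosin gene ATM1 (AT3G19960). Seedlings of each genotype grew on half-strength Murashige and Skoog medium with 15 mM glucose, with 15 mM sucrose, or with no sugar (mock). The 6 groups were atm1-1 glucose, atm1-1 sucrose, atm1-1 mock, Col-0 glucose, Col-0 sucrose and Col-0 mock, with 3 biological replicates each. It was the only mutant line, and no complemented line was among the 18 libraries.

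Entry into mitosis depends on CDKs bound to mitotic cyclins, and exit depends on the destruction of those cyclins by the anaphase-promoting complex with its activator CDC20. Plants have their own B-type CDKs, whose transcripts peak around G2 and M phase, and divide by building a cell plate across the dividing cell inside a microtubule array, the phragmoplast. MYB3R proteins bind a promoter element with the core AACGG, found in many genes of G2 and M phase. In a seedling most dividing cells lie in the root and shoot meristems, so transcripts of mitosis come from a small share of the tissue, and sugar is known to activate these meristems.

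The members were rare in whole seedlings. Libraries were made by QuantSeq, which reads the 3′ end of each polyadenylated transcript, and held 9450790 to 20256309 counts on genes. Levels are given as CPM, which are counts scaled to a common library total and normalized by edgeR's TMM method, with no division by transcript length, since each transcript gives reads at its end. CDKA;1 (AT3G48750) had the most counts of the members, 4306 over the 18 libraries, and KNOLLE (AT1G08560) followed with 3075. At the other end, CYCB2;1 (AT2G17620) had 144 counts among the members that passed the filter on low counts. CYCA2;1 (AT5G25380) and CDC20.2 (AT4G33260) had 56 and 80 counts over all libraries and did not pass, which left 29 members among 19679 tested genes. The 29 tested members summed to 87.9 to 134 CPM per library.

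A few features of the libraries bear on these values. atm1-1 glucose replicate 2 stood apart over all tested genes, with an SD of 0.885 in log2 CPM from the other replicates of its group. atm1-1 glucose replicate 1 came next at 0.727, and the remaining libraries had 0.582 or less. Over the tested members alone replicate 2 did not stand apart, with an SD of 0.684, against 0.903 in atm1-1 mock replicate 3. ATM1 itself had 311 to 623 counts per library and a log2 fold change of -0.08 (SE 0.11, q = 0.86, edgeR) in atm1-1 over Col-0 averaged over treatments, so its level did not check the genotype labels. Markers of the root meristem were sparse, with PLT1, PLT2 and WOX5 at 60, 17 and 25 counts over 18 libraries. SHR and SCR were well detected, with 2924 and 1908 counts, so the summed level of the 5 root meristem markers came mostly from them. That sum ranged over 20.2 to 27.8 CPM in atm1-1 glucose, 16.5 to 21.3 in atm1-1 sucrose and 18.1 to 21.3 in atm1-1 mock. In Col-0 it ranged over 19.1 to 20.6 CPM on glucose, 16.8 to 22.5 on sucrose and 17.1 to 21.1 in mock.

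The AACGG core was more common upstream of the members than upstream of genes at large. In the 250 bases before the annotated start, read from the TAIR10.1 genome with its RefSeq annotation, AACGG or its reverse complement CCGTT stood in 17 of 31 members, which is 54.8%, against 5645 of 27443 protein-coding genes, or 20.6%. The longer forms CTAACGG and CCAACGG, on either strand and each containing the core, stood in 8 members (25.8%) and in 2.58% of protein-coding genes. Among the B-type cyclins 6 of 8 held the core, the exceptions being CYCB1;4 and CYCB2;4. Shown here are the windows of 3 members that passed the test for sugar below, and of CYCB1;2, which had the most matches, 4. Each is written 5′ to 3′ on the strand of the gene, with AACGG and CCGTT in capitals. All 4 genes lie on the minus strand, and the windows are chr1:7137829-7138078 for CYCB2;3, chr5:20964538-20964787 for MAP65-3, chr1:2711001-2711250 for KNOLLE and chr5:1861704-1861953 for CYCB1;2.
CYCB2;3: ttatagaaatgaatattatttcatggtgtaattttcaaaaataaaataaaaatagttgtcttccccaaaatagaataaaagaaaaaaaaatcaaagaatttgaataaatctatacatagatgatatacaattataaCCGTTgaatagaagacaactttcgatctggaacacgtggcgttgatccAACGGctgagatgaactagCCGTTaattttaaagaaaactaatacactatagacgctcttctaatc
MAP65-3: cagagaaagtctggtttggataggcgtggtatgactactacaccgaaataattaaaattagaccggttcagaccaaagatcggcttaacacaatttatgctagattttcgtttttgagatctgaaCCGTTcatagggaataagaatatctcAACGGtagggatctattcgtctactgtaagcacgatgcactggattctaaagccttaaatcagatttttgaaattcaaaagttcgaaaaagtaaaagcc
KNOLLE: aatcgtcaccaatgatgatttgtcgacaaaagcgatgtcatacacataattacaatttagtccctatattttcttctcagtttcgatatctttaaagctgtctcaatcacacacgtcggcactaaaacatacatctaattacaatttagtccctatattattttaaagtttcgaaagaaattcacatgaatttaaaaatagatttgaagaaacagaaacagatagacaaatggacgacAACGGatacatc
CYCB1;2: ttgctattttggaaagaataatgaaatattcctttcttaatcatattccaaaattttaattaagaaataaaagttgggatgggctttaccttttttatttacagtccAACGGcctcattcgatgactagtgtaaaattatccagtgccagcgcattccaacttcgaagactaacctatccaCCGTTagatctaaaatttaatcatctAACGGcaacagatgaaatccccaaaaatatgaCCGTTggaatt

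The matches of CYCB2;3 began 114, 66 and 47 bases before its start, those of MAP65-3 125 and 99 bases before, and the single match of KNOLLE 12 bases before. CYCB2;4 and CDKB2;1, which also passed that test, held no match in this window. Of the 29 tested members, the 16 with a match had a median log2 fold change of 0.26 with sugar, 14 of them positive, and 3 passed. The 13 without had a median of 0.11, 8 of them positive, and 2 passed. Match and role were not separated here, since 6 of the 8 B-type cyclins, whose median was 0.54, held a match. These are descriptions of the windows, and binding was not measured.

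Averaged over both genotypes and both sugars, 5 mitotic genes rose with sugar and none fell. They were the cyclins CYCB2;3 (AT1G20610) and CYCB2;4 (AT1G76310), the kinase CDKB2;1 (AT1G76540), the cell plate syntaxin KNOLLE and MAP65-3 (AT5G51600), which bundles the microtubules of the phragmoplast. Log2 fold changes over mock were 0.36 to 0.92. A gene passed at a Benjamini-Hochberg adjusted p (q) of at most 0.1, the threshold of the study, in edgeR's quasi-likelihood test across all 19679 genes and 18 libraries. The 5 were 17.2% of the 29 tested members, where 5.94% of all tested genes rose and 11.7% passed in either direction. Without atm1-1 glucose replicate 2 the count was 3, and leaving out each of the 18 libraries in turn gave 1 to 6. In those fits 7.26% to 17.1% of all tested genes passed in either direction. Without Col-0 mock replicate 1, 1 of 30 members passed, where 7.26% of all tested genes did, 54.4% of them rises. At an adjusted p of 0.05 with all libraries, 1 of 29 passed, where 8.02% did, 53.5% of them rises. The excess of rises among the members was thus not seen in every fit. In whole seedlings, more dividing cells and more RNA per dividing cell cannot be told apart.

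Among all 29 tested members, 22 had a positive log2 fold change with sugar, and the median was 0.21, or 0.14 to 0.32 when each library was left out in turn, highest without Col-0 mock replicate 3. The median over all 19679 genes was -0.0026, with 49.6% positive. At an unadjusted p under 0.05 there were 9 members, or 31%, against 21.5% of all genes. The summed level of the members was 106 to 116 CPM in atm1-1 glucose and 119 to 125 in atm1-1 sucrose, against 93.4 to 108 in atm1-1 mock. In Col-0 it was 106 to 134 CPM on glucose and 102 to 127 on sucrose, against 87.9 to 98.4 in mock. Neither Col-0 sugar group overlapped Col-0 mock in this sum, while atm1-1 glucose overlapped atm1-1 mock and atm1-1 sucrose did not.

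**Figure D1:**
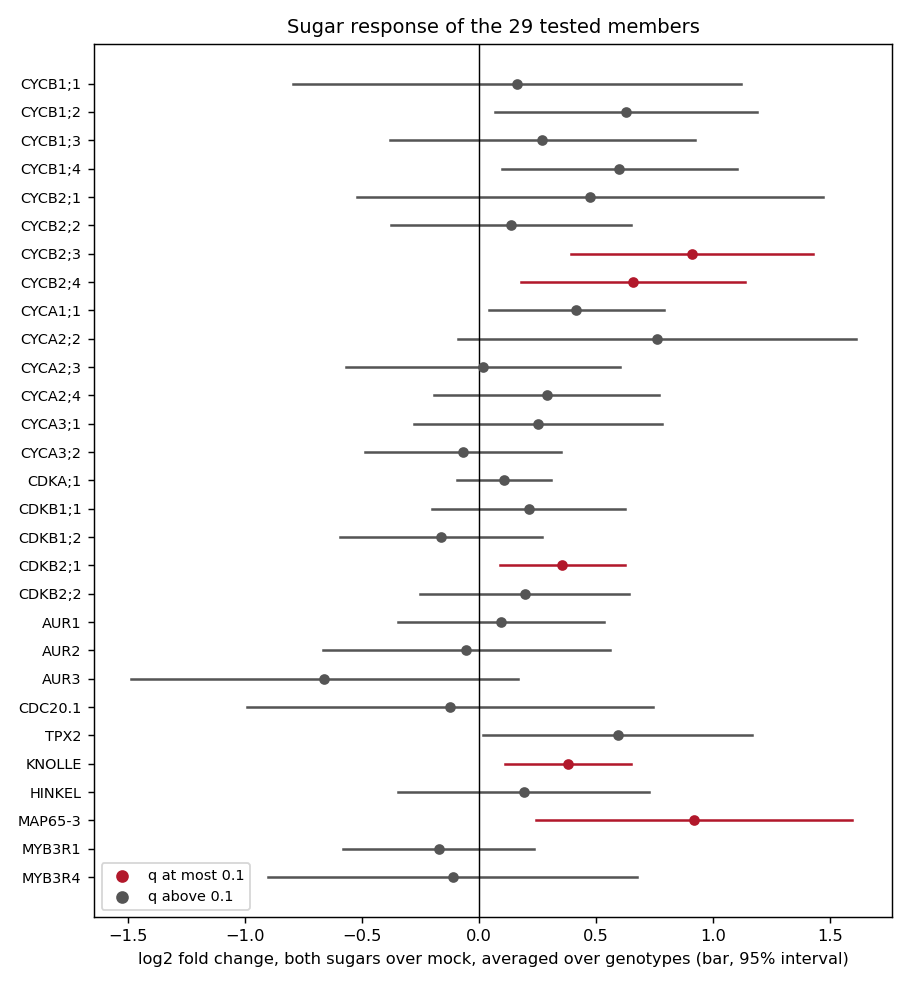
Log2 fold change of both sugars over mock, averaged over genotypes (x axis), for each of the 29 tested members (y axis, grouped by role); points are edgeR estimates, bars 95% intervals, and red marks q of at most 0.1. All 8 B-type cyclins lie above 0, with CYCB2;3 at 0.91, while AUR3 lies lowest at -0.66 with an interval that includes 0.

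B-type cyclins bind CDKs at the entry into mitosis, and all 8 had higher estimates with sugar than in mock. Their log2 fold changes ran from 0.14 for CYCB2;2 (AT4G35620) to 0.91 for CYCB2;3, with a median of 0.54, and 2 passed the test. In each of the 4 comparisons of a sugar with mock within a genotype, 7 of the 8 were positive, although none passed there. Glucose and sucrose were set against the same mock libraries of a genotype, so these comparisons are not independent. The medians of the 8 were 0.52 for glucose and 0.59 for sucrose in atm1-1, and 0.40 for glucose and 0.51 for sucrose in Col-0.

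CYCB2;3 had the lowest q of the members. It had 2.83, 8.53 and 4.42 CPM in atm1-1 glucose and 5.39, 5.99 and 3.37 in atm1-1 sucrose, against 3.98, 3.23 and 2.13 in atm1-1 mock. In Col-0 it had 6.14, 2.78 and 4.51 CPM on glucose and 4.02, 5.04 and 7.71 on sucrose, against 1.64, 2.04 and 3.27 in mock. Sugar libraries were mostly above mock, and 9 of 12 exceeded the highest mock library of their own genotype, but only Col-0 sucrose was free of overlap with its mock. The log2 fold change was 0.91 (SE 0.25, 95% interval 0.39 to 1.43, q = 0.0231, edgeR), a rise of 1.88-fold. This call held without each of the 18 libraries in turn and in the 9 other settings tried, with q between 0.0011 and 0.0908. Without atm1-1 glucose replicate 2, where CYCB2;3 was highest, the log2 fold change was 0.78 (q = 0.0269).

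Its close relative CYCB2;4 had 2.83, 9.67 and 5.19 CPM in atm1-1 glucose and 7.42, 5.86 and 6.19 in atm1-1 sucrose, against 3.34, 6.14 and 2.78 in atm1-1 mock. Values in Col-0 were 4.09, 5.57 and 7.04 CPM on glucose and 3.41, 5.25 and 5.39 on sucrose, against 2.16, 3.45 and 3.78 in mock. Only Col-0 glucose lay wholly above its mock. CYCB2;4 rose by a log2 fold change of 0.66 (SE 0.23, q = 0.0842, edgeR). The call was lost when any one of 12 of the 18 libraries was left out, with log2 fold changes of 0.52 to 0.86 over all 18 and q up to 0.242.

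The other B-type cyclins, did not pass, among them CYCB1;3 (AT3G11520) with a log2 fold change of 0.27 (SE 0.32) and CYCB2;1 with 0.48 (SE 0.48). CYCB1;2 (AT5G06150) had a log2 fold change of 0.63 (SE 0.27, q = 0.169, edgeR) and CYCB1;4 (AT2G26760) of 0.60 (SE 0.24, q = 0.142), both above the mean of their mock in 11 of 12 sugar libraries. CYCB1;1 (AT4G37490), whose promoter is widely used to mark cells in G2 and M phase, had 0.999, 1.41 and 1.08 CPM in atm1-1 glucose and 1.17, 0.708 and 1.55 in atm1-1 sucrose, against 0.634, 2.20 and 0 in atm1-1 mock. In Col-0 it had 0.801, 1.39 and 0.957 CPM on glucose and 0.273, 0.719 and 1.09 on sucrose, against 0.893, 1.10 and 0.504 in mock. The groups overlapped throughout, and its log2 fold change of 0.16 had a 95% interval of -0.80 to 1.12. At 237 counts over 18 libraries a change of CYCB1;1 anywhere within that interval could have been missed.

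**Figure D2:**
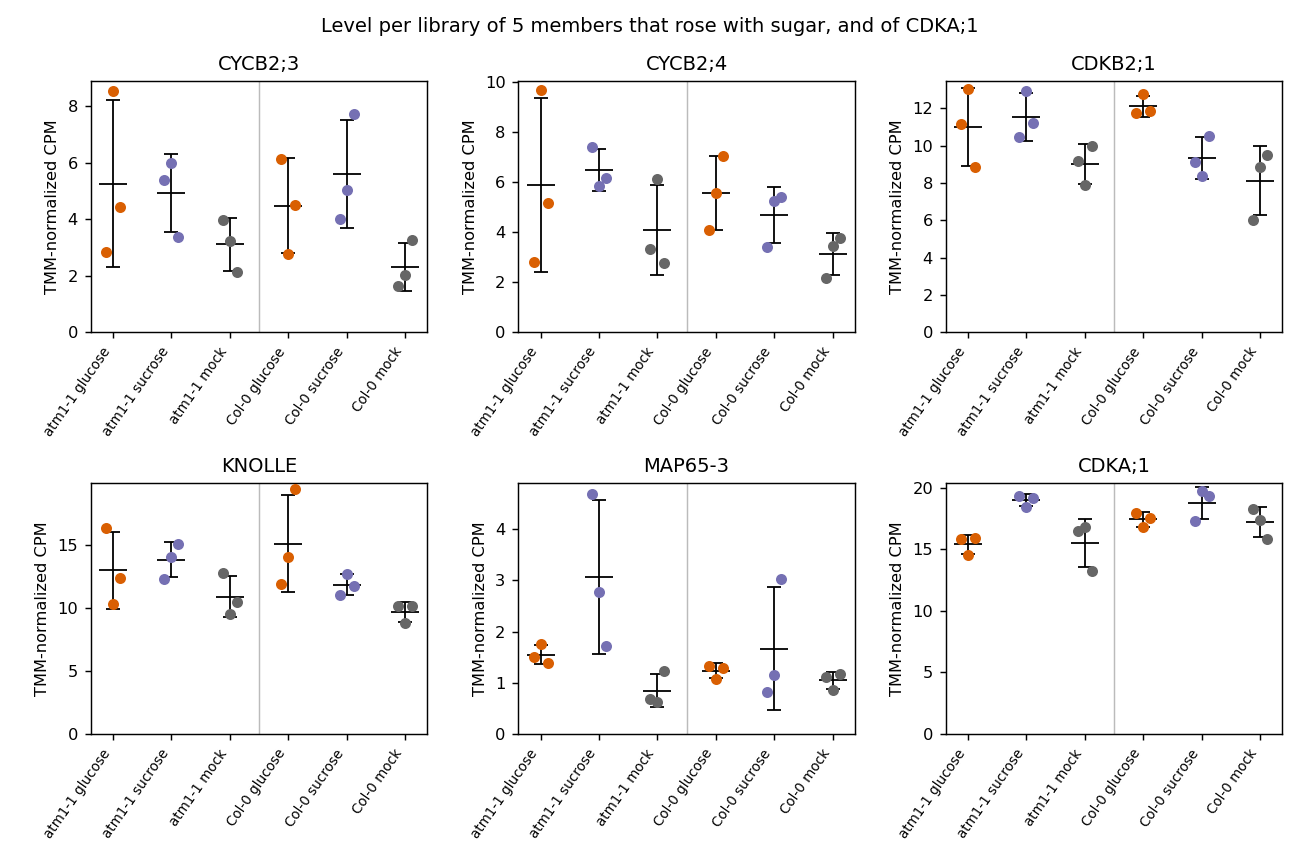
TMM-normalized CPM (y axis) of the 5 members that rose with sugar and of CDKA;1 in each group (x axis); points are the 3 libraries in order of replicate number, dashes the mean and bars the SD. MAP65-3 in atm1-1 sucrose, at 1.73 to 4.70 CPM, lies above atm1-1 mock at 0.630 to 1.23 CPM, and CDKA;1 stays between 13.2 and 19.7 CPM in every library.

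A-type cyclins act earlier, from S phase to early mitosis, and none of the 6 tested passed in any comparison. With sugar averaged over genotypes, 5 of 6 were positive with a median of 0.27. CYCA1;1 (AT1G44110) had 5.33, 4.66 and 3.95 CPM in atm1-1 glucose and 4.33, 4.89 and 4.82 in atm1-1 sucrose, against 4.50, 4.09 and 2.53 in atm1-1 mock. In Col-0 it had 5.52, 4.50 and 5.26 CPM on glucose and 4.09, 4.03 and 7.57 on sucrose, against 4.02, 3.69 and 3.19 in mock. Both Col-0 sugar groups lay above Col-0 mock, but sucrose only by 4.03 against 4.02 CPM. The log2 fold change of CYCA1;1, 0.42 (SE 0.18, q = 0.175, edgeR), missed the threshold. CYCA2;2 (AT5G11300) had the largest estimate of the group, 0.76, with a 95% interval of -0.09 to 1.61 on 218 counts. CYCA2;3 (AT1G15570) and CYCA2;4 (AT1G80370) had 0.02 and 0.29, with intervals that included 0. CYCA3;2 (AT1G47210), with 6.16, 1.58 and 6.20 CPM in atm1-1 glucose, was near 0 at -0.07, and its lowest library was again the one that stood apart.

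CYCA2;1, the A-type cyclin too rare to test, had 3 or fewer counts in each atm1-1 glucose and atm1-1 mock library and up to 8 in atm1-1 sucrose. Its Col-0 libraries had at most 1 count on glucose, 10 on sucrose and 7 in mock. Fitted with no filter on low counts, its log2 fold change with sugar was -0.33 (SE 0.91).

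Among the CDKs, the plant-specific CDKB2;1 rose, while CDKA;1, which is present through the whole cycle, did not pass. CDKB2;1 had 11.2, 13.0 and 8.83 CPM in atm1-1 glucose and 10.5, 12.9 and 11.2 in atm1-1 sucrose, against 9.17, 7.87 and 9.97 in atm1-1 mock. In Col-0 it had 11.7, 12.7 and 11.8 CPM on glucose and 9.13, 8.34 and 10.5 on sucrose, against 6.03, 8.87 and 9.48 in mock. Sucrose in atm1-1 and glucose in Col-0 gave no overlap with mock, and the other pairs overlapped. The log2 fold change was 0.36 (SE 0.13, q = 0.0984, edgeR), near the threshold, and the call was lost when any one of 12 libraries was left out (log2 fold changes of 0.27 to 0.42) and in 3 other settings, among them the fit with no filter on low counts (q = 0.142, in a range of 0.031 to 0.31 over all settings).

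CDKA;1 had the most precise estimate of any member, 0.11 (SE 0.10, 95% interval -0.09 to 0.31). Its level was 15.8, 14.5 and 15.9 CPM in atm1-1 glucose and 19.3, 18.4 and 19.2 in atm1-1 sucrose, against 16.5, 16.8 and 13.2 in atm1-1 mock. atm1-1 sucrose was thus above its mock in all 3 libraries, with a log2 fold change of 0.29 (SE 0.16, q = 0.411, edgeR). CDKB1;1 (AT3G54180) and CDKB2;2 (AT1G20930) had 0.21 and 0.19 with sugar, and CDKB1;2 (AT2G38620) had -0.16. The 95% intervals of these 3 included 0.

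KNOLLE, the syntaxin that fuses vesicles into the cell plate, had 16.3, 10.3 and 12.4 CPM in atm1-1 glucose and 12.3, 14.0 and 15.1 in atm1-1 sucrose, against 12.7, 9.53 and 10.5 in atm1-1 mock. Col-0 gave 11.9, 14.0 and 19.4 CPM on glucose and 11.0, 12.7 and 11.8 on sucrose, against 10.1, 8.79 and 10.2 in mock. Both Col-0 sugar groups lay above Col-0 mock, whereas the atm1-1 groups overlapped. The rise was 0.38 on the log2 scale (SE 0.13, q = 0.0741, edgeR), and the call, though not the size, was lost when any one of 8 libraries was left out, with log2 fold changes of 0.33 to 0.45 over all 18. KNOLLE overlaps NPQ1 on the opposite strand by 464 bases, and whether the counting used strand is not given in the sources used here. NPQ1 itself had a log2 fold change of -0.13 (SE 0.09, q = 0.425) on 16098 counts.

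MAP65-3 was the only member to pass within a single genotype. It had 1.50, 1.76 and 1.39 CPM in atm1-1 glucose and 4.70, 2.77 and 1.73 in atm1-1 sucrose, against 0.692, 0.630 and 1.23 in atm1-1 mock. Both sugar groups of atm1-1 lay above its mock, and the sucrose libraries spread most. Col-0 had 1.33, 1.07 and 1.30 CPM on glucose and 0.818, 1.15 and 3.04 on sucrose, against 1.12, 0.863 and 1.18 in mock, where the groups overlapped.

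In atm1-1 sucrose over atm1-1 mock, MAP65-3 had a log2 fold change of 1.87 (SE 0.51, 95% interval 0.82 to 2.92, q = 0.0444, edgeR), a rise of 3.66-fold. It was the 1 member of 29 to pass, or 3.45%, where 5.23% of all tested genes passed and 2.85% rose. The call was lost without atm1-1 sucrose replicate 1 (1.43, q = 0.316), atm1-1 mock replicate 1 (1.73, q = 0.151) or atm1-1 mock replicate 2 (1.71, q = 0.159), and it could not be made at a minimum of 10 counts in every library, which removed the gene. Over both sugars and genotypes the log2 fold change was 0.92 (SE 0.33, q = 0.0883, edgeR). That call was lost when any one of 10 libraries was left out, with q up to 0.192, while the log2 fold change stayed at 0.73 to 1.09. The difference between the sucrose responses of atm1-1 and Col-0 was 1.18 (SE 0.72, 95% interval -0.31 to 2.66, unadjusted p = 0.116, q = 1.00, edgeR), so the response was not shown to differ between genotypes.

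TPX2 (AT1G03780), which nucleates spindle microtubules and activates Aurora kinase, and HINKEL (AT1G18370), a kinesin of the phragmoplast, complete this group. TPX2 had 0.59 (SE 0.28, q = 0.217, edgeR) and HINKEL 0.19 (SE 0.26, q = 0.729). All 4 genes of the spindle and cell plate were positive in each of the 4 sugar comparisons within a genotype, which share mock libraries. Their average over these comparisons is then positive by construction, and its median was 0.49.

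The Aurora kinases, CDC20.1 and the MYB3R factors had estimates below 0 or near it. Aurora kinases phosphorylate histone H3 and act on the spindle and the centromere. With sugar AUR1 (AT4G32830) had a log2 fold change of 0.09, AUR2 (AT2G25880) of -0.05 and AUR3 (AT2G45490) of -0.66, and none passed. AUR3 had 0.333, 1.32 and 2.63 CPM in atm1-1 glucose and 1.28, 2.58 and 0.364 in atm1-1 sucrose, against 1.67, 0.630 and 3.43 in atm1-1 mock. In Col-0 it had 1.07, 2.03 and 2.32 CPM on glucose and 0.545, 0.504 and 0.907 on sucrose, against 3.50, 1.57 and 1.18 in mock. Only Col-0 sucrose was clear of its mock, below it in all 3 libraries, with a log2 fold change of -1.64 (SE 0.70, unadjusted p = 0.027, q = 0.299, edgeR). AUR2 overlaps AT2G25890 on the opposite strand by 877 bases, and that gene rose with sugar by 1.19 (SE 0.28, q = 0.00835).

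CDC20.1 (AT4G33270), an activator of the anaphase-promoting complex, had a log2 fold change of -0.12 (95% interval -0.99 to 0.75) on 233 counts. Its sister CDC20.2 had at most 2 counts in atm1-1 glucose libraries, 18 in atm1-1 sucrose and 15 in atm1-1 mock, and at most 5, 4 and 1 in Col-0 glucose, Col-0 sucrose and Col-0 mock. MYB3R1 (AT4G32730), which can activate or repress genes of G2 and M phase, and the activator MYB3R4 (AT5G11510) had -0.17 (SE 0.20) and -0.11 (SE 0.38). Neither passed in any comparison.

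**Figure D3:**
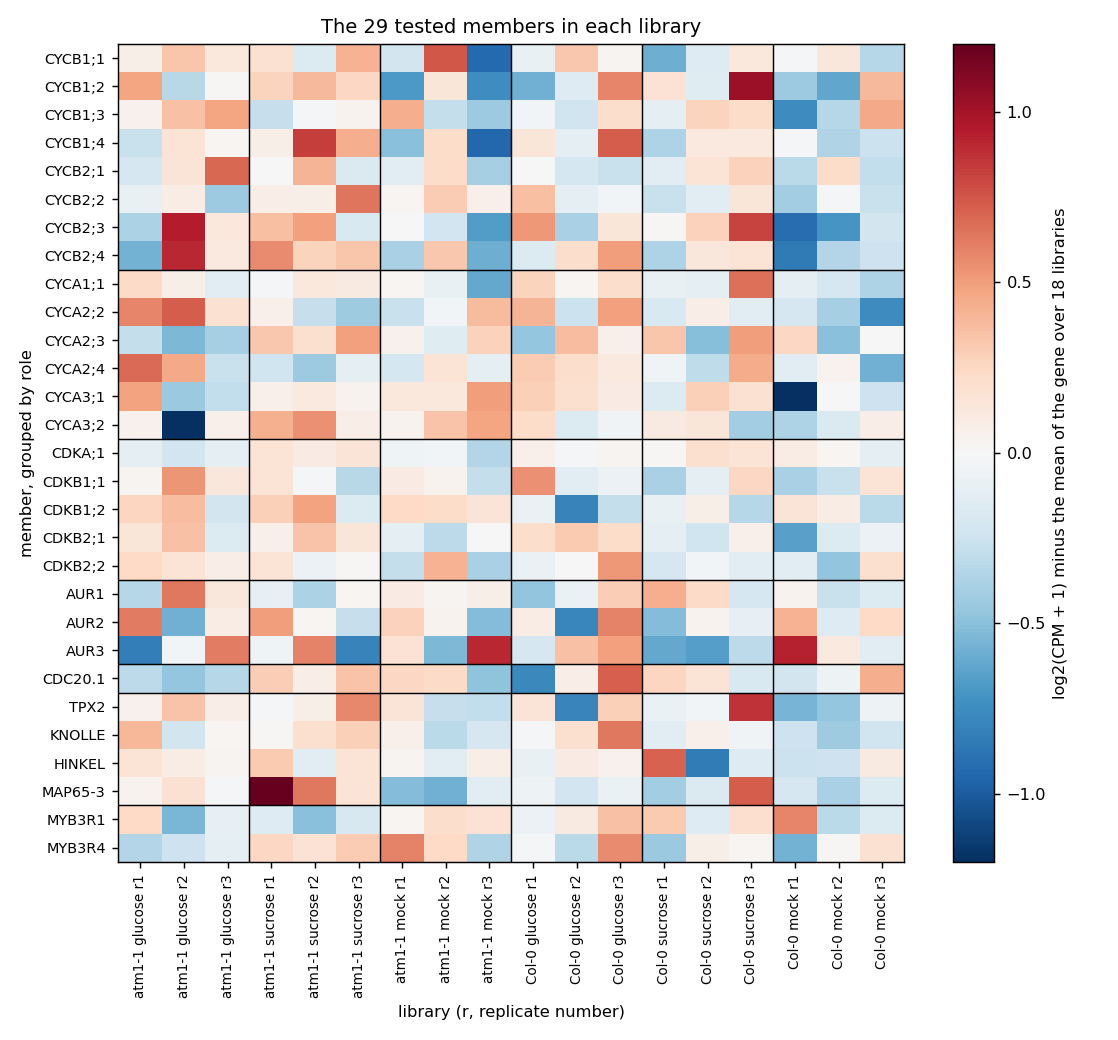
Log2(CPM + 1) of each tested member minus its mean over the 18 libraries (colour) for each member (rows, by role) and library (columns, by group). The B-type cyclins are mostly blue in the mock libraries of both genotypes, except in atm1-1 mock replicate 2, where most lie above their mean. The library atm1-1 glucose replicate 2 holds the highest CYCB2;3, 8.53 CPM, and the lowest CYCA3;2, 1.58 CPM.

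Each sugar was then set against mock within a genotype. Apart from MAP65-3 with sucrose in atm1-1, no member passed. In atm1-1 glucose over mock 0 of 29 passed, where 2.92% of all tested genes did. That share was 10.5% without atm1-1 glucose replicate 1 and 1.48% without atm1-1 mock replicate 3, and 0 members passed in either case. The median of the members was 0.27 against -0.01 for all genes, 0.15 without atm1-1 glucose replicate 2 and 0.16 without atm1-1 mock replicate 3, 19 were positive, and 0 members had an unadjusted p under 0.05, against 13.7% of all genes. DESeq2 and limma called 0 members of this comparison too. In atm1-1 sucrose over mock the median was 0.22, against 0.15 without atm1-1 mock replicate 3 and 0.35 without atm1-1 mock replicate 1, 21 were positive and 2 had an unadjusted p under 0.05, or 6.9% against 14.6% of all genes. CYCB1;4 came next after MAP65-3 with 3.31, 6.31 and 4.55 CPM in atm1-1 sucrose, against 1.90, 3.78 and 1.14 in atm1-1 mock, an estimate of 1.05 (SE 0.39, q = 0.162, edgeR). Its groups overlapped in the second mock library, and without that library q was 0.0498, in a range of 0.0498 to 0.512 over all settings.

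In Col-0 glucose over mock 0 of 29 members passed, where 0.554% of all tested genes did. Yet 25 of 29 were positive, with a median of 0.32, which was 0.19 without Col-0 glucose replicate 3 and 0.53 without Col-0 mock replicate 3, and 5 had an unadjusted p under 0.05, or 17.2% against 6.07% of all genes. These were KNOLLE (0.65, q = 0.362), CDKB2;1 (0.58, q = 0.527), CYCA2;2 (1.70, q = 0.642), CYCB2;3 (0.96, q = 0.701) and CYCB2;4 (0.84, q = 0.761), with q from edgeR. DESeq2 and limma called 0 members here as well. In Col-0 sucrose over mock 0 of 29 passed, where 2.14% of all tested genes did, 23 were positive with a median of 0.25, which was 0.15 without Col-0 sucrose replicate 3, and 3 had an unadjusted p under 0.05, or 10.3% against 13.2% of all genes. CYCB2;3 was nearest with 1.28 (SE 0.40, q = 0.123, edgeR), and it passed in DESeq2 (q = 0.0632), in limma (q = 0.0789 and 0.0866) and in 3 other settings, with q from 0.0165 to 0.583 over all settings. The other members under 0.05 were AUR3 and TPX2 (1.00, q = 0.334).

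**Figure D4:**
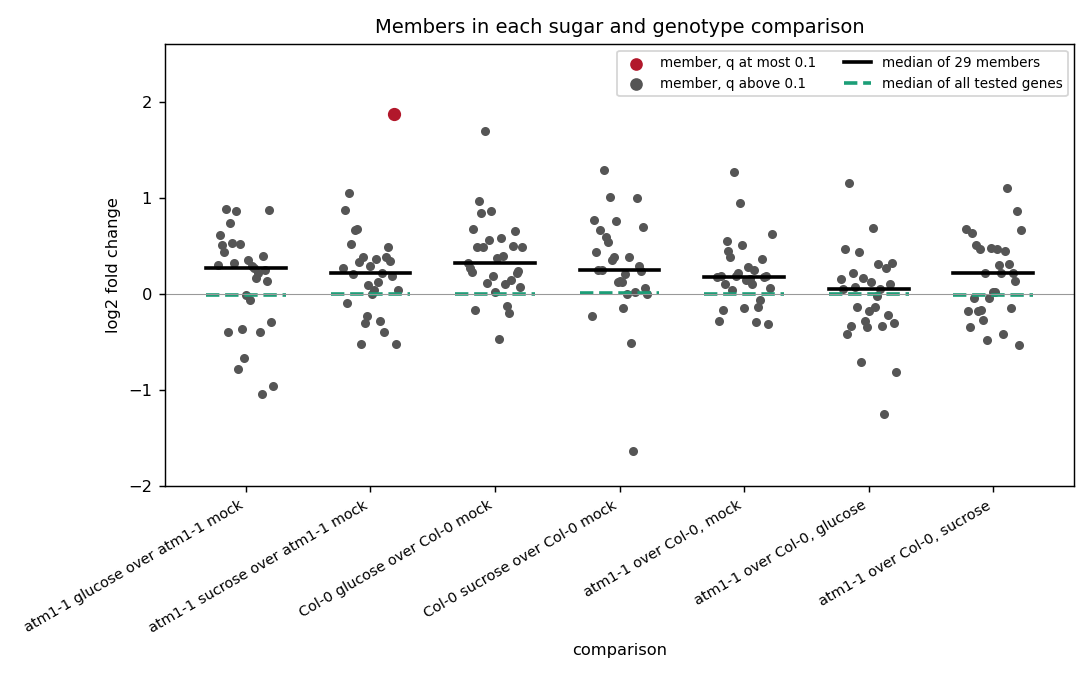
Log2 fold change (y axis) of each of the 29 tested members in the 4 sugar and 3 genotype comparisons (x axis); points are members, red where q is at most 0.1, solid lines the median of the members and dashed lines the median of all 19679 tested genes. The member median lies above the gene median in every column as plotted, but that of atm1-1 over Col-0 on glucose, 0.04, was below 0 in 8 of 16 other settings; the highest is 0.32 in Col-0 glucose over mock, and MAP65-3 in atm1-1 sucrose is the only red point.

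No member differed between genotypes past the threshold. In atm1-1 over Col-0, 0 of 29 members passed in mock, on glucose or on sucrose, where 0.158%, 0.0508% and 0.0457% of all tested genes did. Averaged over treatments 0 of 29 passed, where 0.884% did. DESeq2 and limma called none in these 4 comparisons either, and members with an unadjusted p under 0.05 numbered 1 in mock, 0 on glucose, 0 on sucrose and 1 in the average, where 5.51%, 6.48%, 4.62% and 10.6% of all genes did. The median log2 fold changes were 0.18 in mock, 0.04 on glucose, 0.22 on sucrose and 0.10 in the average. They depended on single libraries. The glucose median was -0.13 without atm1-1 glucose replicate 1 and below 0 without 4 of the 6 libraries compared, as well as with library size scaling (-0.04), limma (-0.05) and a minimum of 10 counts in every library (-0.09), so it has no stable direction. The mock median was 0.28 without atm1-1 mock replicate 3, the sucrose median 0.11 without atm1-1 sucrose replicate 1, and the average 0.06 without Col-0 glucose replicate 2 and 0.19 without Col-0 mock replicate 3. Without atm1-1 glucose replicate 1 the share of all genes that passed was 0.95% on glucose and 3.09% in the average, with 0 members. For a typical member the 95% interval of the average reached 0.48 on either side. Passing the threshold over all genes asks for more, so differences between genotypes of that size or smaller could be missed.

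CDKB1;2 had the lowest q in the average. It had 3.75, 4.13 and 2.40 CPM in atm1-1 glucose, against 2.76, 1.28 and 2.26 in Col-0 glucose. It had 3.84, 4.57 and 2.55 in atm1-1 sucrose, against 2.73, 3.17 and 2.13 in Col-0 sucrose, and 3.69, 3.62 and 3.43 in atm1-1 mock, against 3.42, 3.22 and 2.18 in Col-0 mock. Only in mock were the genotypes apart, by a narrow margin. The log2 fold change was 0.48 (SE 0.20, unadjusted p = 0.0239, q = 0.374, edgeR). CYCA3;1 (AT5G43080), a cyclin of S phase, was the member under 0.05 in mock, with 3.23, 3.23 and 4.50 CPM in atm1-1 mock, against 0.521, 2.90 and 2.27 in Col-0 mock (0.95, SE 0.42, q = 0.871, edgeR).

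The question of whether sugar acts differently on these genes in the mutant was tested as the difference of the responses. No member and no gene of the 19679 passed, for glucose or for sucrose (0% of all tested genes in each). At an unadjusted p under 0.05 there were 750 genes (3.81%) for glucose and 558 (2.84%) for sucrose, with 1 member, CYCA3;1, for glucose and 0 for sucrose. DESeq2 and limma called 0 members in both. CYCA3;1 had a difference of -1.23 (SE 0.60, 95% interval -2.46 to -0.0066, q = 1.00, edgeR), and -1.01 without atm1-1 glucose replicate 2. The medians over members were -0.17 for glucose and 0.03 for sucrose, and leaving out each library gave -0.33 to -0.10 for glucose and -0.13 to 0.13 for sucrose. Intervals reached 1.19 and 1.15 on either side for a typical member. Passing the threshold over all genes asks for more, so differences of that size or smaller could be missed.

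Other genes of the cell cycle came from 3 lists, to be read beside the 5.94% of all tested genes that rose with both sugars. Of 20 tested genes for mitosis and cytokinesis outside the members, 3 (15%) rose with both sugars, 0 fell and 16 were positive, with a median of 0.27. They were AT1G63100 (0.86, q = 0.0332, edgeR), the spindle checkpoint gene MAD2 (0.67, q = 0.0211) and the minus-end kinesin ATK5 (0.52, q = 0.0531). Of 25 tested regulators, which include CDK inhibitors, subunits of the anaphase-promoting complex and the E2F and retinoblastoma genes, only CKS2, a subunit that binds CDKs, rose with both sugars (0.51, q = 0.00499). That was 4%, and 12 of 25 were positive with a median of -0.01, near that of all genes. Of 9 genes for S phase, only the ribonucleotide reductase subunit TSO2 rose with both sugars (0.58, q = 0.00856), or 11.1%. Of the 9, 5 were positive with a median of 0.07. In atm1-1 the medians were -0.22 for glucose and -0.05 for sucrose, with 3 and 4 of the 9 positive. In Col-0 they were 0.24 and 0.30, with 7 and 6 positive. In atm1-1 sucrose over mock 1 gene of each list rose (5%, 4% and 11.1%), where 2.85% of all tested genes rose. They were ATK5 (1.08, SE 0.27, q = 0.0247), CKS2 (0.57, SE 0.18, q = 0.0906) and TSO2 (0.85, SE 0.22, q = 0.0321, edgeR). In none of the 3 lists did a gene fall in any of the 11 comparisons. Among all tested genes 11.7% passed with both sugars, of which 50.7% were rises, and at most 5.23% passed in the other comparisons.

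Across the 18 libraries the members moved together only loosely. Pearson's r of log2 CPM over the 406 pairs of tested members had a median of 0.13, and 265 were positive. Set against the mean of the other members, CYCB2;3 followed closest (r = 0.69, n = 18), then CYCB2;4 (0.69), CYCA1;1 (0.68), CYCB1;4 (0.67) and TPX2 (0.66). AUR3 (-0.36) and MYB3R1 (-0.26) ran against the rest, and 24 of 29 were positive. The libraries share their treatment groups and the counts are low, so these values are descriptions. The 10 other genes most like the mean of the members, among 16016 with enough counts, had r of 0.74 to 0.82. AT4G14330 led with 0.82, and IQD29 (0.80) and AT3G52110 (0.79) came next. UVI4-LIKE, an inhibitor of the anaphase-promoting complex, was among the 10 (0.74).

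Markers of tissues give the setting of these values. Green tissue markers were lower with either sugar than in mock in Col-0, with overlap in atm1-1. They had summed levels of 29313 to 36305 CPM in atm1-1 glucose and 25917 to 33937 in atm1-1 sucrose, against 32676 to 40374 in atm1-1 mock. In Col-0 they were 29864 to 35019 CPM on glucose and 30903 to 34510.4 on sucrose, against 35836 to 37312 in mock. With both sugars RBCS1A, the small subunit of Rubisco, fell by 0.28 on the log2 scale (q = 0.0319, edgeR) and CAB3, a chlorophyll-binding protein, by 0.27 (q = 0.0651). The other green tissue markers did not pass, with -0.14 for CAB1 (q = 0.313) and -0.24 for LHCB2.1 (q = 0.166, edgeR). RBCS1A also fell by 0.47 (q = 0.0513) in atm1-1 sucrose over mock, the comparison in which MAP65-3 passed. There CAB3, LHCB2.1 and CAB1 did not pass (q = 0.237, 0.207 and 0.524, edgeR). SHR and SCR of the root meristem had 0.16 (q = 0.573) and -0.04 (q = 0.907). The part of tissue composition in the values of the members was not tested.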

How the data were processed

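RNA of 18 seedling libraries was measured as 50-base QuantSeq reads. The authors aligned them with TAIR10, and the deposited counts are raw reads on each gene. Submitters' processing notes name STAR, HTSeq and edgeR; versions, annotation release and strand setting are not given in the sources used here. A deposited table of signal values, which are counts scaled by the authors to a common total, was used only for limma.

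Counts were analysed in R 4.3.3 with edgeR 4.0.16. Genes passed filterByExpr (minimum count 10) over the 6 groups, were TMM-normalized and entered glmQLFit as 1 model of all 18 libraries, with 11 comparisons, each adjusted over 19679 genes. The study's own tool, PoissonSeq, was not used. The fits were tested on simulated data. Alternatives, with DESeq2 1.42.0 and limma 3.58.1 (pseudocounts 1 and 0.1), are given at the end. Intervals are 95% intervals. PCR copies are not told apart, and low counts limit precision.

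The members and the 3 further lists were chosen with earlier results of these data known. All 31 members are named; from the lists, only genes that passed, and the genes most like the members were ranked by Pearson's r among genes whose mean log2 CPM reached 1. Promoter windows came from TAIR10.1 with its own annotation, matched by locus, and no coordinates were carried between builds. In all, 11 of 31 members overlap a gene on the opposite strand. Within the last 300 bases of transcripts, no 2 members shared more than 67% identity.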

Additional observations from a re-analysis of the deposited data

How the results depend on the processing

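Single log2 fold changes were followed through the settings for 22 results, those with an unadjusted p under 0.05 in edgeR's test, and 0 changed direction. These were picked for lying far from 0, so the count does not speak for the other members. Medians over members did so in 2 comparisons. In atm1-1 over Col-0 on glucose the median of 0.04 was below 0 in 8 of 16 settings, down to -0.13, and in the difference of the sucrose responses the median of 0.03 was below 0 in 5 of 12 recounts that left out a library, down to -0.13 without Col-0 mock replicate 3, and at a minimum of 10 counts in every library (-0.0075). The number of members that passed stayed within 1.5 times in 180 of 208 recounts over the 11 comparisons, but in 8 comparisons it was 0 in every setting. Elsewhere it was less stable. It stayed within 1.5 times in 11 of 27 recounts for both sugars over mock. For atm1-1 sucrose over mock that held in 11 of 16, and for Col-0 sucrose over mock in 9 of 16. For both sugars over mock it was 5, against 1 at an adjusted p of 0.05 and 3 with replicate number as a block. Without each library in turn it was 1 to 6, with 1 without Col-0 mock replicate 1 or Col-0 glucose replicate 3. It was 2 without Col-0 mock replicate 2, Col-0 sucrose replicate 3, atm1-1 mock replicate 1 or 3, or atm1-1 sucrose replicate 1 or 3, and 3 without Col-0 mock replicate 3, Col-0 glucose replicate 1 or 2, Col-0 sucrose replicate 2, atm1-1 glucose replicate 2 or atm1-1 sucrose replicate 2. For atm1-1 sucrose over mock it was 1, against 0 at a minimum of 10 counts in every library and 2 with limma at either pseudocount, and leaving out each library gave 0 to 1. For Col-0 sucrose over mock it was 0, against 1 with library size scaling, with no filter on low counts, with DESeq2, with limma at either pseudocount and in the fit of only the 2 groups compared. Leaving out each library gave 0 to 1 there, with 1 without Col-0 sucrose replicate 1. The share of all tested genes that passed moved too. For both sugars it was 11.7%, and 8.02% at an adjusted p of 0.05. Leaving out each library gave 7.26% to 17.1%, lowest without Col-0 mock replicate 1. Without Col-0 glucose replicate 3, 2098 of 19967 genes passed. Leaving out libraries gave 1.85% to 3.81% for atm1-1 sucrose, against 5.23%, and 0.501% to 3.55% for Col-0 sucrose, against 2.14%. The cause was not tested.

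Scaling by library size moved the median of all genes to 0.15 for Col-0 sucrose, 0.14 for atm1-1 sucrose and 0.08 for both sugars, and raised the share of rises among genes that passed to 86.7%, 83.1% and 77.4%, against 58.0%, 54.4% and 50.7% with TMM. The medians of the members were then 0.39, 0.37 and 0.30, positive as before.

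Replicate numbers were shared between groups and gave little sign of pairing the libraries, though 3 libraries per group are too few to settle this. Same-numbered libraries correlated in their deviations from group means at -0.15 to 0.15 over 21 pairs, with 1 pair above 0.1 and 6 libraries closest to their own number. In atm1-1 sucrose over mock every library was closest to its own number, at r of 0.020 to 0.049. With the block the calls of CDKB2;1 and MAP65-3 for both sugars missed the threshold (q = 0.115 and 0.101, edgeR).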
